A study of Danio rerio with 6 samples.

Results

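The genes described here encode the proteins of the mitochondrial ribosome in zebrafish embryos. They were taken by name, as every gene of the deposited table whose symbol starts with mrpl or mrps followed by a digit, which gave 72 of 31621 named genes. Of the 72, 46 encode proteins of the large subunit and 25 proteins of the small subunit. The remaining gene, mrps36, keeps a ribosomal name, but its product is known from human and yeast as a subunit of the alpha-ketoglutarate dehydrogenase complex. mrps18a and mrps30 were counted with the large subunit, where their products sit in mammals.

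The mitochondrial ribosome, or mitoribosome, translates the few messages of the mitochondrial genome, which encode core subunits of the respiratory chain and the ATP synthase. Its RNAs come from mitochondrial DNA, whereas all of its proteins are encoded in the nucleus, made in the cytosol and imported. Many of these proteins descend from those of the bacterial ribosome, and others were added during the evolution of mitochondria and have no bacterial counterpart.

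RNA was sequenced from whole zebrafish embryos at 3 days post fertilization, with 3 libraries from wild-type embryos and 3 from csf1ra-/- embryos, in which both copies of csf1ra carry a mutation made by CRISPR/Cas9. The product of csf1ra is a growth factor receptor used by macrophages and by yellow pigment cells. The labels give 30 embryos, either per genotype or per library, and 1 µg of total RNA per library, and no other allele or treatment. Separate clutches are not stated. The p-values therefore set the difference between genotypes only against the variation between these libraries, and part of that variation may be technical.

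Values are FPKM, mapped fragments scaled by transcript length and by library size, so that levels can be compared between genes. In each library, the FPKM of a gene's first exons and of its last exons were summed separately, and the larger sum was taken as its total. The files hold no read counts, and the sequencing depth is therefore unknown. In whole embryos, fewer cells that use a gene and less of its RNA per cell cannot be told apart. The libraries listed 17291 to 17653 genes each. csf1ra had 4.54, 4.07 and 3.72 FPKM in wild type, was not listed in mutant replicates 1 and 2 and had 0.563 FPKM in mutant replicate 3, a log2 fold change of -2.14 (SE 0.22, limma adjusted p = 0.00284; exact permutation p = 0.1, the smallest that 3 against 3 libraries allow). Mutant replicate 3 stood apart from the others on the second principal component of all tested genes, at -30.5 against -2.17 to 14.4, so results that change without it are given both ways.

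Nearly all of the mitoribosomal protein genes were on in these embryos, at moderate and similar levels. Of the 72 genes, 70 had a total in at least 1 library and 67 passed the filter of at least 1 FPKM in at least 3 libraries. All 67 were listed in every library. The median of their wild-type means was 19.1 FPKM, against 6.15 FPKM over all 15475 genes tested, 78.0 FPKM over 78 nuclear genes of oxidative phosphorylation and 590.1 FPKM over 72 genes of cytosolic ribosomal proteins. Of the 67, 53 had a wild-type mean between 10 and 30 FPKM.

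The parts of the ribosome had similar levels. In the large subunit, the genes with a bacterial counterpart had a median wild-type mean of 22.0 FPKM and the mitochondria-specific genes 17.7 FPKM. In the small subunit the corresponding medians were 20.05 and 13.7 FPKM. The genes within each of these 4 classes spread wider than the distances between the medians.

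**Figure D1:**
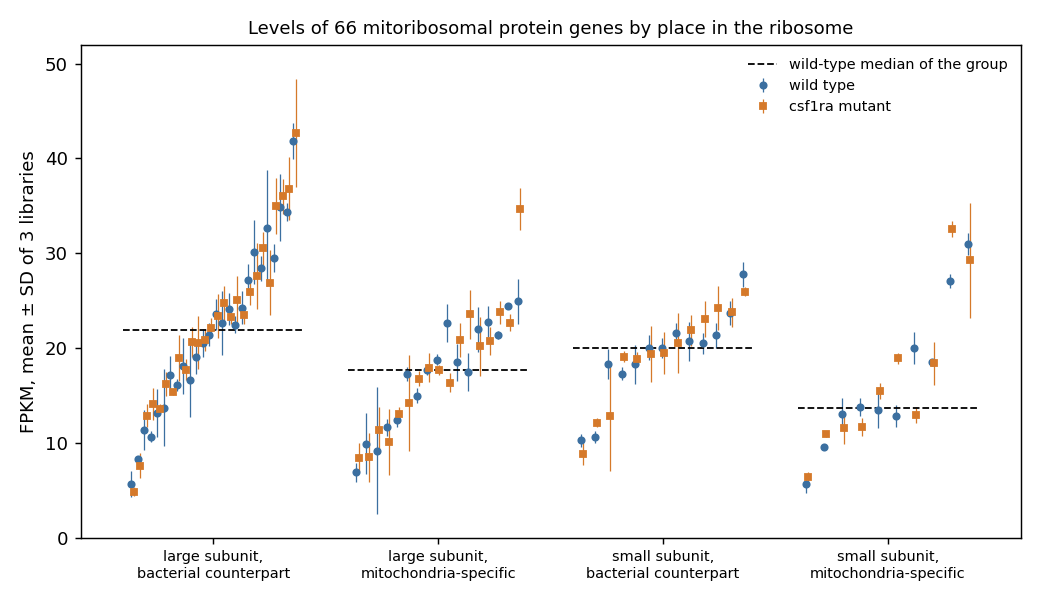
Mean FPKM ± SD of 3 libraries for each of 66 mitoribosomal protein genes in wild type (blue circles) and csf1ra mutants (orange squares), ordered by level within 4 classes along the horizontal axis. The dashed lines mark the wild-type medians of 22.0, 17.7, 20.05 and 13.7 FPKM, and the SD bars of the 2 genotypes overlap for 50 of the 66 genes.

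The highest gene was mrpl12, whose product forms the factor-binding stalk of the large subunit and also binds the mitochondrial RNA polymerase in mammals. It stood at 40.4, 44.0 and 41.2 FPKM in wild type and 44.3, 47.4 and 36.3 FPKM in the mutants. The genotypes overlapped. mrps36 followed with a mean over the 6 libraries of 38.7 FPKM, and then mrpl32, mrpl23 and mrpl30 with 35.6, 35.4 and 32.2 FPKM. The products of these 3 genes are large-subunit proteins with bacterial counterparts, and L23 lies at the exit of the peptide tunnel.

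At the low end stood mrpl2, with 4.52, 7.15 and 5.21 FPKM in wild type and 5.42, 4.41 and 4.77 FPKM in the mutants. These totals add events listed on both strands. On the minus strand alone mrpl2 had 4.52, 5.72 and 5.21 FPKM in wild type and 4.87, 3.86 and 4.22 FPKM in the mutants. Its product is one of the most conserved ribosomal proteins and lies close to the peptidyl transferase centre. The next genes from the bottom were mrps25, mrpl46, mrpl9 and mrpl52, with means over the 6 libraries of 6.03, 7.67, 7.94 and 9.20 FPKM. mrpl2 and mrpl12, both with a bacterial counterpart, thus stood at opposite ends of the family.

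The filter left out 5 genes. mrpl16 was listed in mutant replicate 3 alone, at 3.71 FPKM, by a single last-exon event. mrpl20 was listed in wild-type replicate 1 alone, at 1.29 FPKM, and mrps28 in mutant replicate 2 alone, at 1.30 FPKM. mrpl57 and mrps21 had no first-exon or last-exon total in any library. Transcripts of all 5 were tested in the authors' deposited table, so a missing total here does not say that a gene was silent.

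Most of these genes varied little over the 6 libraries. The highest library was within 1.5 times the lowest for 49 of 67 genes and within 2 times for 63. The exceptions were mrpl45, mrps7, mrpl52 and mrpl51, with ratios of 3.23, 3.09, 2.15 and 2.05. The median SD within a genotype was 0.119 on the log2(FPKM + 1) scale, against 0.164 for all tested genes. It was 0.115 for the 72 cytosolic ribosomal protein genes and 0.123 for the 78 nuclear genes of oxidative phosphorylation. The small spread was thus not particular to this family.

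As a group, the mitoribosomal protein genes had nearly the same level in wild type and mutant. Their median log2 fold change, mutant minus wild type, was 0.04 on the log2(FPKM + 1) scale, against 0.02 over all tested genes. Of the 67 genes, 38 had a positive and 29 a negative estimate, and the estimates ran from -0.59 to 0.53. The large subunit had a median of 0.04 over 43 genes and the small subunit a median of 0.00 over 23 genes. Their summed FPKM was 1265, 1370 and 1306 in the wild-type libraries and 1407, 1353 and 1278 in the mutant libraries. The sums overlapped, and mutant replicates 1 and 3 were the highest and the second lowest of the 6. As a share of the summed FPKM of all tested genes the sums were 0.361%, 0.378% and 0.354% in wild type and 0.392%, 0.386% and 0.360% in the mutants.

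Single genes did pass the test. By limma at an adjusted p under 0.05, 2 genes, mrps23 and mrpl54, were higher in the mutants, and 1, mrps35, was lower. These 3 of 67 genes, 4.48%, compare with 2.42% of all tested genes called in either direction, 1.21% called higher and 1.2% called lower. At an unadjusted p under 0.05 there were 9 genes, 6 higher and 3 lower, which is 13.4% against 15.9% of all tested genes. Genotypes did not overlap for 19 of 67 genes, 28.4%, 13 with higher and 6 with lower mutant values. The share over all tested genes was 22.3%, with 1868 genes higher and 1577 lower of 15475. Taken in either direction, the shares at an unadjusted p under 0.05 and without overlap were thus near those of the transcriptome. The called share rested on 3 genes.

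**Figure D2:**
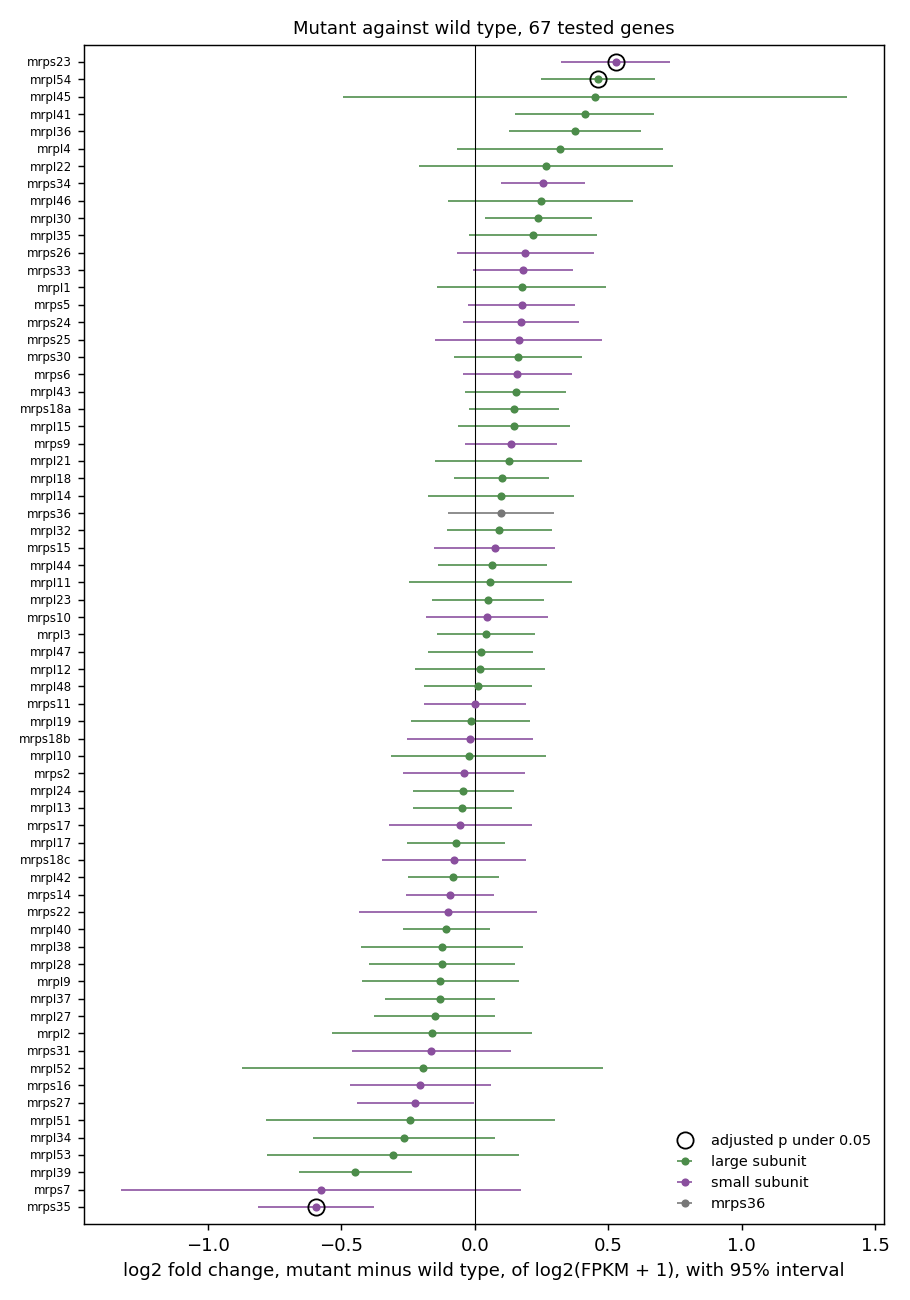
Log2 fold change, mutant minus wild type, of log2(FPKM + 1) for the 67 tested genes with 95% intervals from limma, ordered by size (green, large subunit; purple, small subunit; grey, mrps36). The 3 circled genes have an adjusted p under 0.05, and the estimates run from -0.59 for mrps35 to 0.53 for mrps23.

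The 95% intervals show how precisely these libraries fixed each estimate, gene by gene and not jointly over the family. Of the 64 genes not called, 51 had a 95% interval that lay within a log2 fold change of 0.5 either way, and 62 had one within 1. The median distance from the estimate to either bound was 0.226 over the 67 genes and 0.324 over all tested genes. mrpl45 and mrps7 were the 2 genes whose intervals reached past 1.

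mrps35 encodes a small-subunit protein with no bacterial counterpart. It stood at 18.4, 19.97 and 21.8 FPKM in wild type and at 12.8, 13.9 and 12.2 FPKM in the mutants. Every mutant library lay below every wild-type library, and the lowest wild-type value was well clear of the highest mutant value. The means were 20.03 ± 1.71 and 12.9 ± 0.869 FPKM (SD, n = 3), a log2 fold change of -0.59 (SE 0.09, limma adjusted p = 0.0227). The call was lost when replicates 2 or 3 of the wild type or 1 or 2 of the mutants were left out, with adjusted p-values of 0.0886, 0.0767, 0.0841 and 0.0569. With the replicate number as a block in the fit it was lost as well (limma adjusted p = 0.0867). It held without mutant replicate 3 (adjusted p = 0.044). The gene has 1 first exon and 1 last exon in these files, and both gave the same FPKM in all 6 libraries.

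mrps23 encodes another mitochondria-specific protein of the small subunit. It stood at 11.8, 14.1 and 12.6 FPKM in wild type and at 19.1, 19.4 and 18.3 FPKM in the mutants. Every mutant library was above every wild-type library. The means were 12.9 ± 1.14 and 18.9 ± 0.585 FPKM (SD, n = 3), a log2 fold change of 0.53 (SE 0.09, limma adjusted p = 0.0282). The call ended when replicates 1 or 3 of the wild type or 1 or 2 of the mutants were left out, with adjusted p-values of 0.0925, 0.0901, 0.103 and 0.105, and without the trend and robust options of limma (0.0577). With the replicate number as a block in the fit it ended as well (limma adjusted p = 0.0867).

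mrps23 had a pair of last exons whose starts lay 3 bases apart. The major one was at 9.02, 11.9 and 9.34 FPKM in wild type and 16.1, 15.1 and 14.7 FPKM in the mutants. The minor one was at 2.82, 2.14 and 3.30 FPKM in wild type and 2.94, 4.33 and 3.58 FPKM in the mutants. The genotypes separated for the major last exon and overlapped for the minor one. The share of the major one overlapped between genotypes, at 73.9% to 84.8% in wild type and 77.7% to 84.6% in the mutants.

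mrpl54 encodes a mitochondria-specific protein of the large subunit. It stood at 24.7, 27.4 and 22.7 FPKM in wild type and at 35.5, 36.3 and 32.2 FPKM in the mutants, with no overlap. Its estimate of 0.46 (SE 0.09) had a limma adjusted p of 0.0497, just under the threshold. The call was lost in 12 of 18 alternative settings, with adjusted p-values up to 0.155, among them the omission of any 1 wild-type library or of the first or the second mutant library (0.0744 to 0.155). The estimate stayed between 0.40 and 0.53 in all 18.

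mrpl39 lay just outside the threshold, on the lower side. Its product is a mitochondria-specific large-subunit protein related in sequence to a part of threonyl-tRNA synthetases. It stood at 21.1, 21.9 and 24.9 FPKM in wild type and at 17.5, 15.6 and 15.9 FPKM in the mutants. The genotypes did not overlap, and the estimate was -0.45 on the log2 scale (SE 0.09, limma adjusted p = 0.0525). The adjusted p was 0.0439 after quantile normalization, the only 1 of 18 alternatives in which the gene was called. Leaving out 1 library gave limma adjusted p-values of 0.0904 to 0.160. The total of mrpl39 summed 2 first exons and exceeded its last exon in every library. With last-exon events alone the estimate was -0.36 (limma adjusted p = 0.200).

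**Figure D3:**
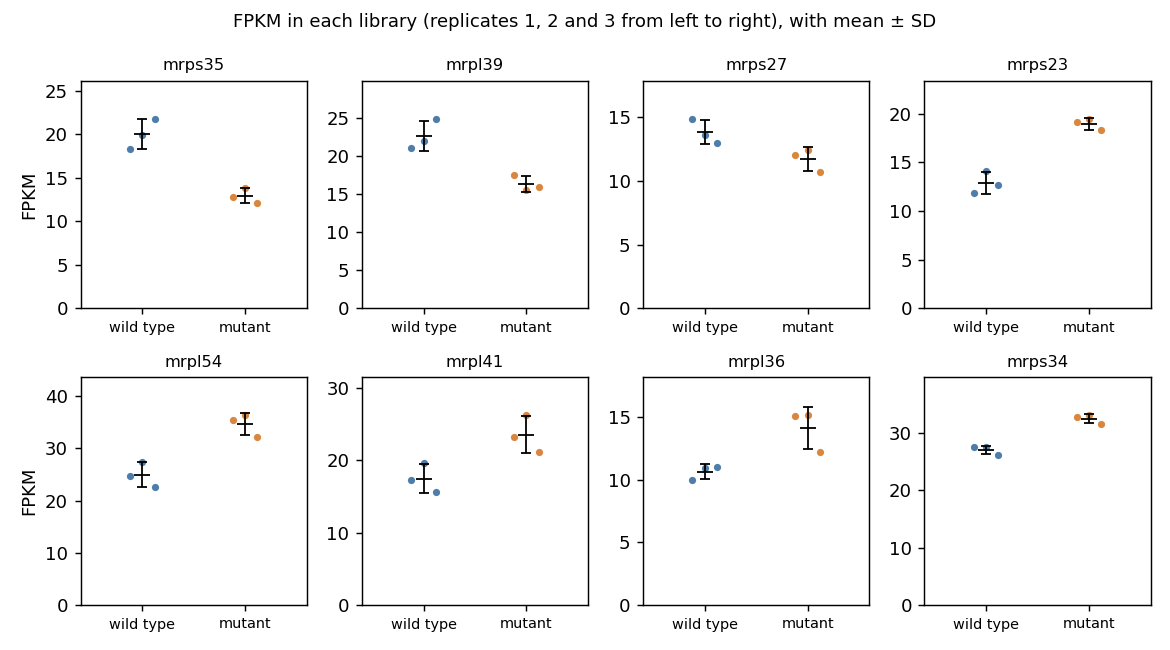
FPKM of 8 mitoribosomal protein genes in each library, with replicates 1, 2 and 3 from left to right within each genotype and the mean ± SD in black; each vertical axis starts at 0. All 8 were taken from the 19 of 67 tested genes whose genotypes do not overlap, so their separation follows from that choice. Genotypes did not overlap for 22.3% of all tested genes. mrps35, mrps23 and mrpl54 passed the test.

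Among the other genes that were higher in every mutant library than in any wild-type library, none was called. mrpl41, a mitochondria-specific protein of the large subunit, stood at 17.2, 19.6 and 15.6 FPKM in wild type and 23.3, 26.2 and 21.2 FPKM in the mutants (log2 fold change 0.41, SE 0.11, limma adjusted p = 0.128). mrpl36, a small zinc-binding protein with a bacterial counterpart, stood at 9.97, 10.95 and 11.03 FPKM and 15.1, 15.2 and 12.2 FPKM (0.37, SE 0.11, 0.139). mrps34, a mitochondria-specific protein of the small subunit, was at 27.5, 27.5 and 26.2 FPKM in wild type and 32.9, 33.1 and 31.6 FPKM in the mutants (0.26, SE 0.07, 0.117). Of these 3, mrps34 had the smallest SE and the smallest estimate. mrpl4, mrpl30 and mrps33 had log2 fold changes of 0.32, 0.24 and 0.18 with limma adjusted p-values of 0.405, 0.236 and 0.332. The estimate for mrpl4 rested in large part on wild-type replicate 3, at 12.1 FPKM against 18.6 and 19.2 FPKM, and was 0.12 without it. The remaining 5 genes without overlap, mrps5, mrpl43, mrps18a, mrpl15 and mrps9, had log2 fold changes of 0.18, 0.15, 0.15, 0.15 and 0.13. Of these, mrps5, mrps18a and mrps9 were chosen for naming after their values were seen, and the estimate for mrpl43 turned to -1.07 with last-exon events alone, its last exon being listed in 3 of the 6 libraries.

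Besides mrps35 and mrpl39, 4 genes were lower in every mutant library than in any wild-type library, with smaller estimates. mrps27, a mitochondria-specific pentatricopeptide repeat protein, stood at 14.9, 13.6 and 13.0 FPKM in wild type and 12.02, 12.4 and 10.7 FPKM in the mutants (log2 fold change -0.22, SE 0.09, limma adjusted p = 0.308). mrpl40, mrps14 and mrpl42 had log2 fold changes of -0.11, -0.09 and -0.08 with adjusted p-values of 0.508, 0.582 and 0.652. Their separation came with very small spreads, as for mrpl40, which stood at 24.4, 24.6 and 24.4 FPKM in wild type and 23.4, 22.9 and 21.7 FPKM in the mutants.

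All 3 called genes encode mitochondria-specific proteins. Of the 27 tested mitochondria-specific genes, 3 were called, 11.1%, and 12 did not overlap between genotypes, 44.4%. Of the 39 tested genes with a bacterial counterpart, 0 were called by limma, 2 had an unadjusted p under 0.05 against 7 of the mitochondria-specific genes, and 7 did not overlap, 17.9%. The medians of the 2 classes were 0.01 and 0.04, and of the 12 mitochondria-specific genes without overlap 7 were higher and 5 lower in the mutants. Over all tested genes, 2.42% were called, 15.9% had an unadjusted p under 0.05 and 22.3% did not overlap. The difference between the classes was not tested.

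A handful of genes had, in 1 or both genotypes, a library far from the others of that genotype. mrps7, a small-subunit protein that binds the ribosomal RNA early in assembly, stood at 16.6, 18.6 and 19.7 FPKM in wild type and at 14.8, 6.37 and 17.5 FPKM in the mutants. Mutant replicate 2 alone was low, and the log2 fold change of -0.58 (SE 0.32, limma adjusted p = 0.438) was -0.17 without it. mrpl45, a tunnel-exit protein that anchors the ribosome to the inner membrane, stood at 5.42, 16.9 and 5.24 FPKM in wild type and at 9.15, 14.0 and 11.1 FPKM in the mutants. Wild-type replicate 2 was the highest of all libraries and the other wild-type libraries the lowest, with a log2 fold change of 0.45 (SE 0.40, adjusted p = 0.643) that became 0.95 without that replicate. mrpl22, whose bacterial counterpart lines the peptide tunnel, was at 9.02 FPKM in wild-type replicate 1 and at 14.9 to 17.4 FPKM in the other 5 libraries. mrpl52 was at 6.18 FPKM in wild-type replicate 3 and 5.50 FPKM in mutant replicate 3, against 9.80 to 11.8 FPKM elsewhere, and its log2 fold change of -0.19 turned to 0.06 without mutant replicate 3. mrpl45, mrpl22 and mrpl53 were chosen for description after their values were seen.

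mrpl53, a mitochondria-specific gene of the large subunit, depended on mutant replicate 3. It stood at 16.5, 17.3 and 17.9 FPKM in wild type and at 11.01, 11.7 and 20.1 FPKM in the mutants. Replicates 1 and 2 of the mutants were below every wild-type library and replicate 3 was above them all. The estimate over all libraries was -0.31 on the log2 scale (SE 0.20, limma adjusted p = 0.512), and without mutant replicate 3 it was -0.56 with an adjusted p of 0.0255. Its total came from a first-exon event, since its last exon was listed in mutant replicate 1 alone, at 2.22 FPKM.

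The libraries of each genotype also differed across the family as a whole. Mutant replicate 3 was the lowest mutant library for 41 of 67 genes and mutant replicate 1 the highest for 40. Wild-type replicate 1 was the lowest wild-type library for 38. The mean of the log2 values over the family was 4.20, 4.32 and 4.23 in the wild-type libraries and 4.34, 4.28 and 4.22 in the mutant libraries, so that the differences within a genotype were as large as those between genotypes. Without mutant replicate 3 the median log2 fold change of the family was 0.08, and 2 genes were called higher, mrps23 and mrpl54, and 2 lower, mrps35 and mrpl53. Calls rose over the whole transcriptome in that setting, to 450 of 15475 tested genes against 374 with all libraries. The median over all tested genes was then 0.03. Leaving out 1 library at a time turned the sign of 17 of the 67 estimates, the largest of them that of mrpl51, at -0.24 over all libraries.

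In the authors' deposited table, 28 of the 72 genes had at least 1 tested transcript with an adjusted p under 0.05. This share of 38.9% compares with 30.1% of the 18800 genes tested in that table. Of the 28, 14 were at the smallest adjusted p that the table holds, 0.000466. They included 16 genes of the large subunit, 11 of the small subunit and mrps36, among them all 3 genes called by limma, mrpl39, mrpl41, mrpl36, mrps34, mrpl30 and mrps27. Of the 28, 27 were tested here, and 14 had a positive and 13 a negative log2 fold change. Genotypes did not overlap for 11 of them, beside 19 of the 67 tested members and 22.3% of all tested genes. The 28 were picked by a test of the same comparison, so this count is no separate support. The deposited table does not name its sides by genotype, so it gives no direction. It includes genes whose libraries overlapped widely here, such as mrpl24, at 22.3, 25.6 and 24.97 FPKM in wild type and 24.3, 22.5 and 23.6 FPKM in the mutants, and mrps21, which had no total.

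Several genes called in the authors' deposited table had estimates of moderate size here and libraries that overlapped. mrpl35, a large-subunit protein with a bacterial counterpart, stood at 15.3, 16.6 and 16.3 FPKM in wild type and at 21.1, 19.3 and 16.4 FPKM in the mutants. Mutant replicate 3 lay between the wild-type libraries, and the estimate was 0.22 on the log2 scale (SE 0.10, limma adjusted p = 0.363). mrps26, a mitochondria-specific gene of the small subunit, was at 11.7, 15.4 and 13.4 FPKM in wild type and at 14.5, 16.2 and 15.7 FPKM in the mutants (0.19, SE 0.11, 0.458). mrps22, another mitochondria-specific gene of the small subunit, was at 32.2, 31.0 and 29.8 FPKM in wild type and at 34.4, 30.7 and 22.6 FPKM in the mutants. Its mutant totals included both the highest and the lowest of the 6, and its log2 fold change of -0.10 (SE 0.14, 0.785) turned to 0.07 without mutant replicate 3. The total of mrps22 summed 2 first exons. That at 6969313 to 6969449 was at 22.1, 20.7 and 17.9 FPKM in wild type and 18.5, 19.1 and 12.1 FPKM in the mutants. Its highest library was wild-type replicate 1. The other was at 10.1, 10.2 and 11.9 FPKM and 15.9, 11.6 and 10.5 FPKM. It lay downstream of the main last exon, and only with it was a mutant library the highest.

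Transcript structure was simple in most of the family. Of the 67 genes with first-exon events, 61 had 1 first exon, and of the 66 with last-exon events, 60 had 1 last exon. The others include mrpl2, whose further first and last exon lay on the opposite strand. For 52 tested genes the summed first-exon and last-exon values were equal within 1% in all 6 libraries. mrpl51, a mitochondria-specific protein of the large subunit, was among these 52 but had 2 first exons. They lay on the minus strand of chromosome 16 of the GRCz10 build, a longer one at 4717449 to 4717682 and a shorter one at 4717511 to 4717676.

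The total of mrpl51 stood at 12.6, 11.6 and 10.8 FPKM in wild type and at 6.13, 11.7 and 12.5 FPKM in the mutants, with only mutant replicate 1 low. The log2 fold change of the total was -0.24, and 0.05 without that library. The shorter first exon was at 11.1, 10.04 and 10.6 FPKM in wild type and at 5.41, 4.91 and 3.42 FPKM in the mutants. Every mutant library was thus below every wild-type library (means 10.6 ± 0.515 and 4.58 ± 1.04 FPKM, SD, n = 3; exact permutation p = 0.1, the smallest that 3 against 3 allow). The longer first exon was at 1.53, 1.55 and 0.236 FPKM in wild type and at 0.718, 6.74 and 9.10 FPKM in the mutants. It made up 12.2%, 13.4% and 2.19% of the total in wild type and 11.7%, 57.8% and 72.7% in the mutants. Mutant replicates 2 and 3 used mainly the longer form, and replicate 1 held the wild-type share of both at a lower total. The starts of the 2 forms lay 6 bases apart and their inner ends 62 bases apart, so reads within the shared part do not tell them apart.

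**Figure D4:**
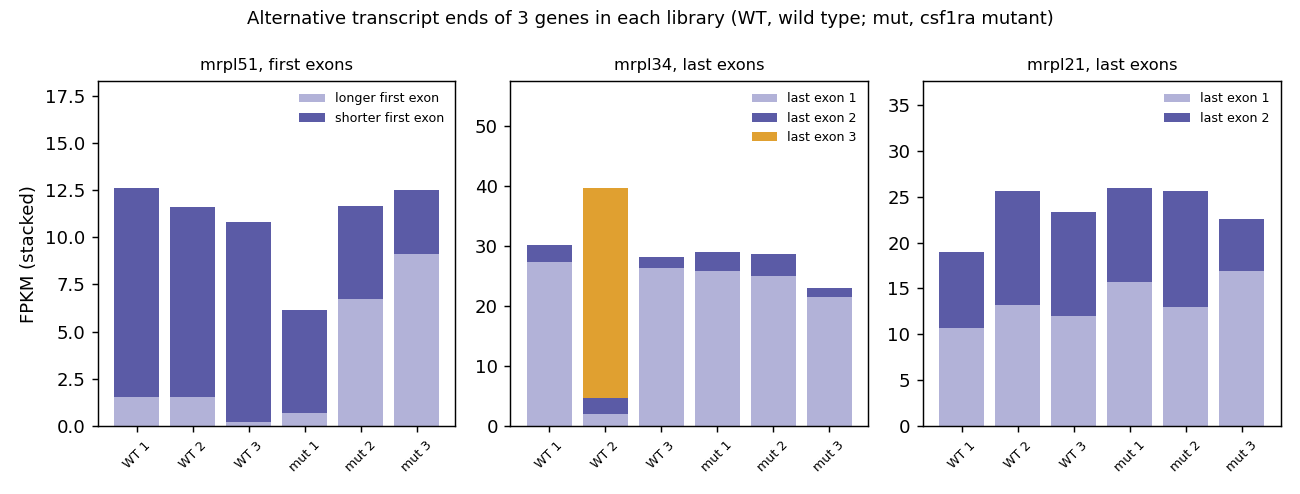
FPKM of the alternative first exons of mrpl51 and of the alternative last exons of mrpl34 and mrpl21 in each library, stacked, so that a bar's height is the summed value. The longer first exon of mrpl51 makes up 57.8% and 72.7% in mutant replicates 2 and 3, and the third last exon of mrpl34 is listed in wild-type replicate 2 alone. The only first exon of mrpl21 has the same FPKM as its second last exon in every library.

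Of the 6 genes with more than 1 first exon, mrpl11 was the only one whose shares did not overlap between genotypes. The share over all genes with more than 1 first or last exon was not counted, so this is a description of mrpl11 alone. The product of mrpl11 is part of the factor-binding region of the large subunit. Its minor first exon made up 11.8%, 9.07% and 12.3% in wild type and 8.57%, 4.49% and 5.90% in the mutants, of totals of 10.8 to 15.8 FPKM. mrpl39 kept its shares, with its minor first exon at 15.9% to 17.0% in wild type and 13.4% to 21.8% in the mutants, while the FPKM of its major first exon did not overlap between genotypes.

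Shares of last exons overlapped between genotypes in all 6 genes that had more than 1. In mrpl34 a last exon of its own, on chromosome 2 (GRCz10), 24667502 to 24667530, took 88.2% of the total in wild-type replicate 2 and was listed in no other library. mrpl34 was also highest in that library, at 39.6 FPKM against 22.9 to 30.2 FPKM. In mrpl21 the second last exon made up 43.6%, 48.7% and 48.5% in wild type and 39.3%, 49.2% and 25.2% in the mutants. Its only first exon had the same FPKM as that last exon in all 6 libraries. The other last exon thus had no listed first exon of its own, and the total adds 2 pieces not shown to be linked. mrpl21 was chosen for description after its values were seen. Within the gene body, a 15-base exon of mrpl12 was included in 0.954% to 3.58% of its listed FPKM, and a retained intron of mrps18a was at no more than 0.827%, both overlapping between genotypes.

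The family is scattered over the genome, with 70 placed genes on 22 chromosomes and at most 6 on any one. Chromosome 14, which carries csf1ra, held mrpl11 and mrpl18, at 27.1 and 32.0 Mb from it, and neither was called. mrps35 lies on chromosome 25, 2242346 to 2263975 on the minus strand, mrps23 on chromosome 15, 30469320 to 30474045, and mrpl54 on chromosome 22, 15693077 to 15694077 (GRCz10).

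**Figure D5:**
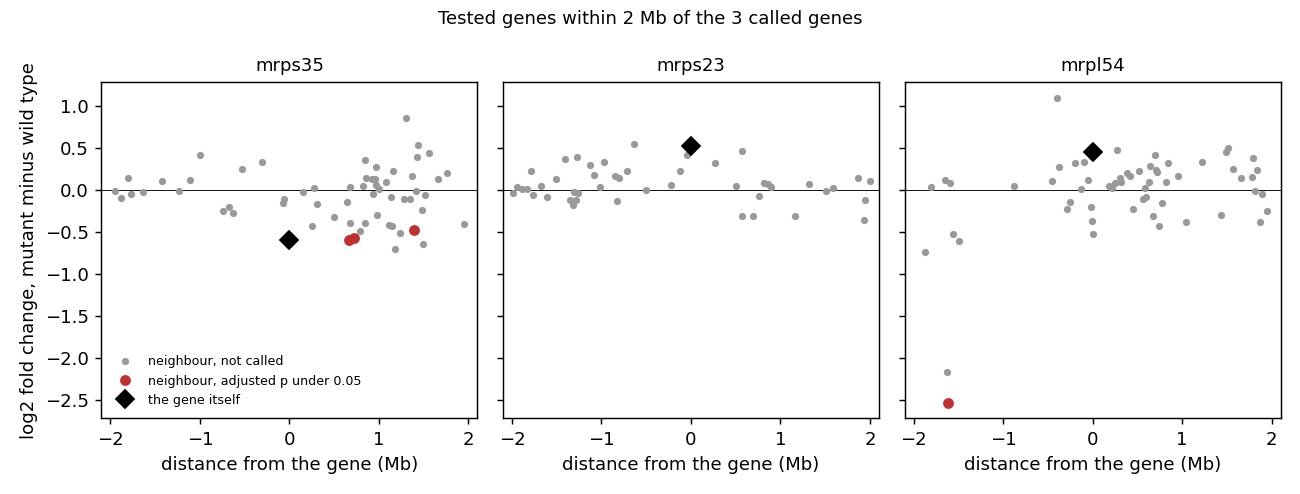
Log2 fold change, mutant minus wild type, of the tested genes within 2 Mb of mrps35, mrps23 and mrpl54, against their distance from the gene in Mb (grey, not called; red, adjusted p under 0.05; black diamond, the gene itself). There are 3 called neighbours of 60 around mrps35, 0 of 46 around mrps23 and 1 of 59 around mrpl54.

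Neighbours were counted within 2 Mb, a window chosen after the values were seen. Over all tested genes 2.42% were called. Around mrps35, 3 of 60, 5%, were called, all lower, namely rab3il1, thoc5 and mpi, with log2 fold changes of -0.57, -0.47 and -0.59. These are close to that of mrps35 itself, and the median over the 60 was -0.03. Around mrps23, 0 of 46 were called by limma, and around mrpl54 1 of 59, 1.69%, aox5, with -2.53. Around mrpl39, f10 was called higher, with 1.15, and cyyr1 lower, with -0.42, of 46 genes, 4.35%. Around mrpl53, on chromosome 19, 4 of 66 were called, 6.06%, 2 in each direction. Whether genes and their neighbours move together was not tested.

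Other genes of mitochondrial translation, of mitochondrial DNA and RNA synthesis and of mitochondrial biogenesis were read beside the family, from 6 lists. Together they held 85 tested genes, of which 1 was called lower by limma and 0 higher, 1.18% in all against 2.42% of all tested genes. At an unadjusted p under 0.05, 9 were higher and 8 lower, 20% together against 15.9% of all tested genes. The median log2 fold change over the 85 was -0.01.

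The called gene was taco1, which in mammals activates translation of the cytochrome c oxidase subunit I message. It stood at 10.1, 10.8 and 10.5 FPKM in wild type and at 4.71, 3.71 and 2.69 FPKM in the mutants. The genotypes were far apart, with a log2 fold change of -1.31 (SE 0.16, limma adjusted p = 0.00789), larger than that of any mitoribosomal protein gene. It was called in all 18 alternative settings.

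taco1 was the only 1 called of 13 tested translation factors, 7.69% against 2.42% of all tested genes. The median log2 fold change of the 13 was 0.07. At an unadjusted limma p under 0.05 there were 5 of the 13, 3 higher and 2 lower. This share of 38.5% compares with 15.9% of all tested genes. Genotypes did not overlap for 5 of the 13, 38.5% against 22.3%. oxa1l, the inner-membrane insertase that binds the mitoribosome, was at 17.1, 20.4 and 17.7 FPKM in wild type and 11.2, 14.3 and 11.3 FPKM in the mutants (-0.55, SE 0.12, limma adjusted p = 0.0602). In the mutants its totals came from the last exon, because the first exon listed in every wild-type library was listed in no mutant library. With first-exon events alone oxa1l was therefore called lower, and no fold is given against libraries in which that exon was not listed. mtif3, tsfm and mtrf1l, which act in initiation, elongation and termination, had log2 fold changes of 0.56, 0.32 and 0.62 and were not called (adjusted p = 0.123, 0.131 and 0.188).

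Mitoribosomal proteins named otherwise had 5 tested genes, 0 called by limma and a median of 0.15. One of them, chchd1 of the small subunit, stood at 11.6, 12.8 and 13.8 FPKM in wild type and 19.8, 18.4 and 16.2 FPKM in the mutants. Its libraries did not overlap, with a log2 fold change of 0.47 (SE 0.10, limma adjusted p = 0.067), and it was called without mutant replicate 3 (0.0445). The 20 aminoacyl-tRNA synthetases, 19 assembly and rRNA modification factors, 18 genes of mitochondrial DNA and RNA synthesis and 10 biogenesis regulators had 0 calls by limma each. At an unadjusted p under 0.05 these lists had 1, 2, 5 and 3 genes. These are 5%, 10.5%, 27.8% and 30%, against 15.9% of all tested genes. The medians of these lists were 0.06, -0.05, -0.04 and -0.02.

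The products of mitoribosomal translation work with nuclear subunits of oxidative phosphorylation. Of 78 tested genes in that list, 3 were called higher, ndufv1, ndufa4 and ndufs6, and 1 lower, ndufa5, which is 5.13% against 2.42% of all tested genes. Their median log2 fold change was 0.08. The genotypes did not overlap for 18 of them, 23.1% against 22.3%, of which 16 were higher and 2 lower. Over all 15475 tested genes, 1868 were higher and 1577 lower without overlap. At an unadjusted limma p under 0.05 there were 19 of the 78, 16 higher and 3 lower, 24.4% against 15.9%. Of 72 cytosolic ribosomal protein genes, 1 was called higher, rps27.1, 1.39%, and the median was 0.05. Of these 72, 9 did not overlap, 12.5%, and 7 had an unadjusted limma p under 0.05, 9.72%. Both lists were taken by symbol, and 3 tested assembly factors of succinate dehydrogenase, 1 of them (sdhaf2) called higher, and 10 tested S6 kinase and binding-protein genes were taken out after the values were seen. Whether these lists differ from the mitoribosomal protein genes was not tested. The 13 mitochondrially encoded protein genes had no totals and were not analysed here.

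Markers of some tissues moved with genotype. Of 11 tested fast-muscle genes 3 were called lower, 27.3%, against 2.42% of all tested genes called in either direction. The summed FPKM of the 11 ran from 19716 to 21645 in wild type and from 18034 to 18896 in the mutants. Of 7 tested genes of the exocrine pancreas 4 were called higher, 57.1%, with sums of 26.4 to 61.8 and 81.2 to 221 FPKM. ela3l and ela2 were each unlisted in a wild-type library. ela3l, 1 of the 4 called, was at 0.881 FPKM, unlisted and at 0.604 FPKM in wild type. ela3l passed the filter through the mutants alone. The 57.1% still includes it, so that share is a description and is not used as support. cel.1, another of the 4, was at 0.479 FPKM in wild-type replicate 2, so its passing of the filter also needed mutant libraries. Of 7 macrophage genes 2 were called lower, 28.6%, with sums of 36.1 to 40.8 and 20.3 to 20.7 FPKM, and spi1a was unlisted in mutant replicates 2 and 3. Of 10 liver genes and 14 genes of dividing cells 0 were called by limma. At an unadjusted p under 0.05 there were 1 and 0, 10% and 0%, against 15.9% of all tested genes. The part of these tissues in the values of the mitoribosomal protein genes was not tested.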

How the data were processed

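Whole-embryo RNA of 3 wild-type and 3 csf1ra-/- libraries was measured. The values in the libraries' deposited tables are FPKM of transcript-structure events, per the file headers. The submitters' processing notes give the build GRCz10 and, without roles, Cufflinks 2.2.1, HISAT2 2.0.1, HTSeq 0.6.1, SAMtools 0.1.18, Trimmomatic 0.30 and DESeq. Their settings and the read depth are unknown, and errors therefore come from the variation between libraries. The adjusted p-values of the authors' deposited table are the authors' own. Its 2 columns of FPKM, which no genotype names, were not used.

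Members and lists were chosen with earlier results of these data known. Where a library did not list a gene, the value was taken as 0. The log2(FPKM + 1) values of 15475 genes, each reaching 1 FPKM in 3 or more libraries, were fitted with limma 3.58.1 (R 4.3.3; trend and robust options). Genotype was the sole term, tests were two-sided, and Benjamini-Hochberg adjustment covered all of these genes. Fold changes on this scale understate the change of low genes. Exact permutation tests used SciPy 1.17.1, with Python 3.11.15, pandas 2.3.3 and matplotlib 3.10.9. The procedure was checked on simulated data.

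Genes were named where limma or the authors called them, where they were among the 8 largest changes each way without overlap (6 existed downward), or where they were the 5 highest, 5 lowest or not tested. Others are marked as chosen after their values were seen. Of the 72 gene IDs, 70 were found in the reference name table and 69 had the same symbol there. Protein and promoter sequences were not analysed here, so the planned description of promoter motifs was not made. Alternatives were quantile normalization, median-ratio rescaling, other filters and pseudocounts, limma without trend and robust options, the replicate number as a block, each library left out, other gene totals, and restriction to genes that all 6 libraries listed.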

Additional observations from a re-analysis of the deposited data

How the results depend on the processing

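Of the 51 genes followed through the alternatives, 43 kept their direction in every one that gave a value, the called genes among them. The 8 that turned sign were not called. The 51 leave out some of the 67 tested members, so these counts do not describe the whole family. Over all 67, the omission of 1 library turned the sign of 17 estimates. Leaving out 1 library took mrpl51 from -0.41 to 0.050, mrpl52 from -0.47 to 0.057, mrps22 from -0.23 to 0.067, mrps2 from -0.12 to 0.034, mrpl12 from -0.059 to 0.13 and mrpl11 from -0.063 to 0.19. mrpl21 was at -0.20 with first-exon events alone, and mrpl43 at -1.07 with last-exon events alone and -0.061 with the mean of both sums. The medians of the family and of the large subunit moved by less than the spread between libraries in all 18. Quantile normalization gave 2 genes called lower, mrps35 and mrpl39. mrpl54 lost its call, leaving 1 gene called higher, without a filter, with a pseudocount of 0.1 or 0.5, with first-exon events alone and over genes that all 6 libraries listed, and limma without trend and robust options left 0. Leaving out 1 library gave 0 to 2 genes called higher, 0 to 2 called lower, and a small-subunit median of -0.015 to 0.066, while the calls over all tested genes ran from 133 to 450 against 374. In the 6 mitochondrial lists, first-exon events alone and the mean of both sums each gave 1 gene called higher, elac2, and 2 called lower, taco1 and oxa1l, and leaving out 1 library gave 0 to 2 called higher. With the replicate number as a block, 0 family members were called higher and 0 lower (adjusted p = 0.0867 for mrps35 and mrps23), and 115 genes in all. In their deviations from the genotype means, same-numbered libraries correlated at -0.0274, 0.00274 and 0.00642, which shows no shared deviation by number. The labels state no pairing, and with 3 libraries per genotype these values cannot settle whether the samples were paired. Read depth is unknown and limits what can be said of mrpl16, mrpl20 and mrps28, each listed in 1 library. csf1ra could not be given a value with a filter of 5 FPKM or over genes that all 6 libraries listed, where it was not among the genes tested. The causes of these changes were not tested.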
